A study of Mus musculus with 24 samples.

Results

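The 9 homeobox genes described here belong to the Dlx, Hmx and Msx families, which have members known from the dorsal inner ear. These genes, Dlx1, Dlx2, Dlx3, Dlx5, Dlx6, Hmx2, Hmx3, Msx1 and Msx2, were read in mouse otocysts with and without a block of FGF receptor signalling. They were taken by name from a table of raw read counts, in which all 9 had a row among 15736 genes. The study sequenced poly(A)-selected, stranded RNA from the epithelium of the otocyst, the closed cup of ectoderm from which the inner ear grows. Control embryos (con) were Rosa26rtTA/+, with rtTA, an activator that needs doxycycline, and no other transgene. Experimental embryos (R2b) were Rosa26rtTA/+;Tg(tetO-s(dn)Fgfr2b)/+, in which rtTA drives a secreted FGFR2b fragment that acts as a dominant negative by taking up ligand. Doxycycline reached both genotypes: every pregnant female received 1.5 mg/kg by injection and then chow at 200 mg/kg. Exposure began at embryonic day E9.75 and lasted 12 h (E9.75+12h), or lasted 24 h from E9.25 (E9.25+24h) or 24 h from E10.25 (E10.25+24h), so that tissue was taken at E10.25, E10.25 and E11.25. Within a litter the otocysts of each genotype were combined, which gave 1 con and 1 R2b pool per female. Rosa26 is active in most cells and the transgene product is secreted, so by design the block is not confined to the otocyst. Counts were used for 3 litters at E9.75+12h and for 4 litters at each other exposure, 22 libraries in all, with 18.7 to 28.2 M counts per library.

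Dlx, Hmx and Msx proteins are homeodomain transcription factors that mark overlapping fields of the otocyst wall before it folds into the labyrinth. Dlx5 and Dlx6 act in the dorsal wall, from which the semicircular canals and the endolymphatic duct grow, and loss of Dlx5 disturbs canal formation. Hmx2 and Hmx3 act in the dorsolateral wall and are needed for the vestibular part of the ear. Msx1 and Msx2 are repressors that respond to BMP signals in many epithelia. FGFR2b is the epithelial receptor for FGF3 and FGF10, which are made in and around the early ear. Whole otocyst epithelia were pooled, so the dorsal position that some of these genes are known for was not measured here. Fewer cells of a type also cannot be told apart from less RNA per cell.

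The 9 genes lie at 6 loci (GRCm38, GENCODE M21), and all are protein-coding. Dlx1 (ENSMUSG00000041911, plus strand, chr2:71528113-71533981) and Dlx2 (ENSMUSG00000023391, minus strand, chr2:71543408-71546754) form a convergent pair, best known from the forebrain and the branchial arches. The other Dlx pair is Dlx6 (ENSMUSG00000029754, plus strand, chr6:6863334-6868568) and Dlx5 (ENSMUSG00000029755, minus strand, chr6:6877805-6882085). Dlx3 (ENSMUSG00000001510, plus strand) is at chr11:95120119-95125296. Hmx3 (ENSMUSG00000040148, chr7:131542867-131544925) and Hmx2 (ENSMUSG00000050100, chr7:131548773-131558014) follow each other on the plus strand. Msx1 (ENSMUSG00000048450, minus strand, chr5:37820485-37824583) and Msx2 (ENSMUSG00000021469, minus strand, chr13:53466884-53473074) are single genes.

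Promoter windows of RefSeq (GRCm38.p6, 250 bases before to 50 after a transcription start) matched 6 of the 9 genes in 7 windows, Hmx2 having 2. Both strands were searched for ACCGGAAG (an ETS site), CTTTGAT (TCF/LEF), TAATTA (homeodomain) and GGCGCC (BMP SMAD), of which the last 2 read the same on either strand. ACCGGAAG and CTTTGAT, held by 2.30% and 3.73% of 32851 promoters of the same length, were in no window of the 6 genes. TAATTA, held by 5.29% of promoters, was in the Msx2 window at positions -187 to -182 from the start that RefSeq gives. GENCODE starts Msx2 farther upstream, so this match lies in the first exon of its annotation, in the 5′ UTR. GGCGCC, held by 11.9% of promoters, was in the Dlx2 window at -99 to -94. No motif match overlapped another in these windows. The stretches below are shown because they carry these matches or stand directly before the start of a gene that moved with the transgene. They are 100 bases before the start of Dlx2 (minus strand, chr2:71546755-71546854), Hmx2 (plus strand, chr7:131548657-131548756) and Msx1 (minus strand, chr5:37824586-37824685), and 30 bases around the Msx2 match (minus strand, chr13:53472950-53472979). Capitals mark the motif match, and a sequence without capitals holds none of the 4 motifs.
Dlx2: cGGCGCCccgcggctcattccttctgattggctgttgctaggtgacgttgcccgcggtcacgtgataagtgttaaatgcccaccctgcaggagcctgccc
Hmx2: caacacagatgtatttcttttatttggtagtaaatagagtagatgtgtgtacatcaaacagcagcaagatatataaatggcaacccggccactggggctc
Msx1: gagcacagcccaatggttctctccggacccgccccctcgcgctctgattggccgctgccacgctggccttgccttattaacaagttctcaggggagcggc
Msx2: tgactgctcctgTAATTAactcctaattta

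Some libraries stand apart and bear on what follows. The transgene is read in Fgfr2, which codes for the receptor, and in Ighg1, which codes for an immunoglobulin constant region. At the first 2 exposures it followed the labels, with at most 36 Ighg1 counts in any con library and at least 19414 in any R2b library. At E10.25+24h it did not. Ighg1 had 15754, 28, 5106 and 16 counts under the label con in litters 1 to 4, and 1504, 25248, 23658 and 19155 under the label R2b. Litter 1 thus went against its labels, and the library labelled con of litter 3 carried the transgene as well. All libraries were kept under their labels, and group summaries that include this exposure are also given without its litter 1, an addition made after the values were seen. Otic markers were present in all 22 libraries, led by Oc90, an otoconial matrix protein gene, at 649 to 5614 CPM. CPM is counts per M counts of the library, after TMM scaling (trimmed mean of M-values). At E9.25+24h both pools of litter 4 had the most mesenchyme marker RNA, with summed levels of 1267 CPM in con and 1176 CPM in R2b against 79.3 to 392 CPM in the other litters.

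**Figure D1:**
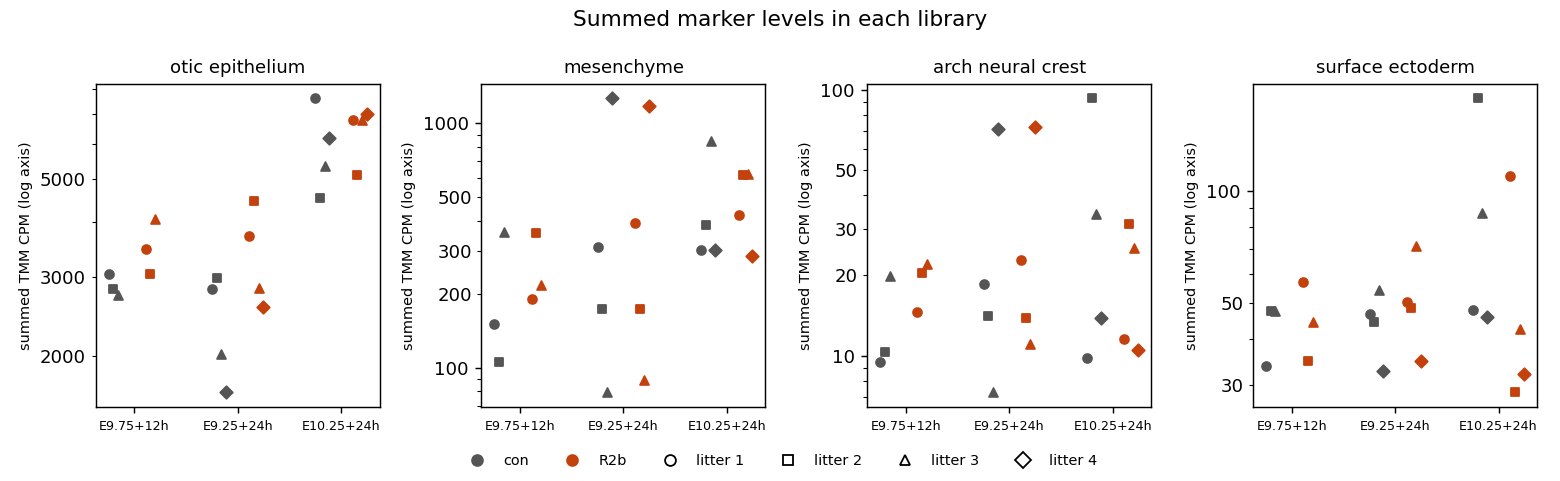
Summed TMM CPM (log axis) of marker lists for otic epithelium, mesenchyme, arch neural crest and surface ectoderm in each library, by exposure; grey points are con, orange points R2b, and the symbol gives the litter. Litter 4 of E9.25+24h stands above the other litters of its exposure in mesenchyme and arch neural crest markers in both genotypes, and con litter 2 of E10.25+24h is highest in surface ectoderm markers at 178 CPM.

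In control otocysts the 9 genes spanned a wide range of levels, compared here per kb of exon. Dlx5 was highest and Dlx1 lowest in every exposure. At E9.75+12h Dlx5 was at 83.5 ± 11.3 CPM per kb (SD, n = 3) and Dlx1 at 3.82 ± 0.891. Between them came Hmx3 at 28.3, Msx2 at 21.9, Dlx6 at 21.3, Dlx2 at 21.2, Msx1 at 12.5, Hmx2 at 11.2 and Dlx3 at 9.78 CPM per kb. The ranges of Msx2, Dlx6 and Dlx2 overlapped in that order, as did those of Msx1 and Hmx2, so those neighbours were not separated by the spread between litters. At E9.25+24h Dlx5 was at 31.7 ± 6.70 CPM per kb (SD, n = 4), overlapping Hmx3 at 23.8 ± 4.12, and Dlx1 at 3.21 ± 0.766 overlapped Dlx3 at 5.04 ± 1.23. At E10.25+24h the library labels left Dlx5 at 38.0 ± 5.51 and Hmx3 at 33.6 ± 5.69 CPM per kb (SD, n = 4), which overlapped, and Dlx1 at 3.72 ± 0.461, below all others. Without litter 1 they were at 36.2 ± 5.06, 33.6 ± 6.97 and 3.80 ± 0.535 CPM per kb (SD, n = 3), in the same relation. The library numbers have a prefix of their own in each exposure, and the labels do not say what it stands for. Levels in different exposures therefore cannot be told apart from a batch that the prefix may mark.

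**Figure D2:**
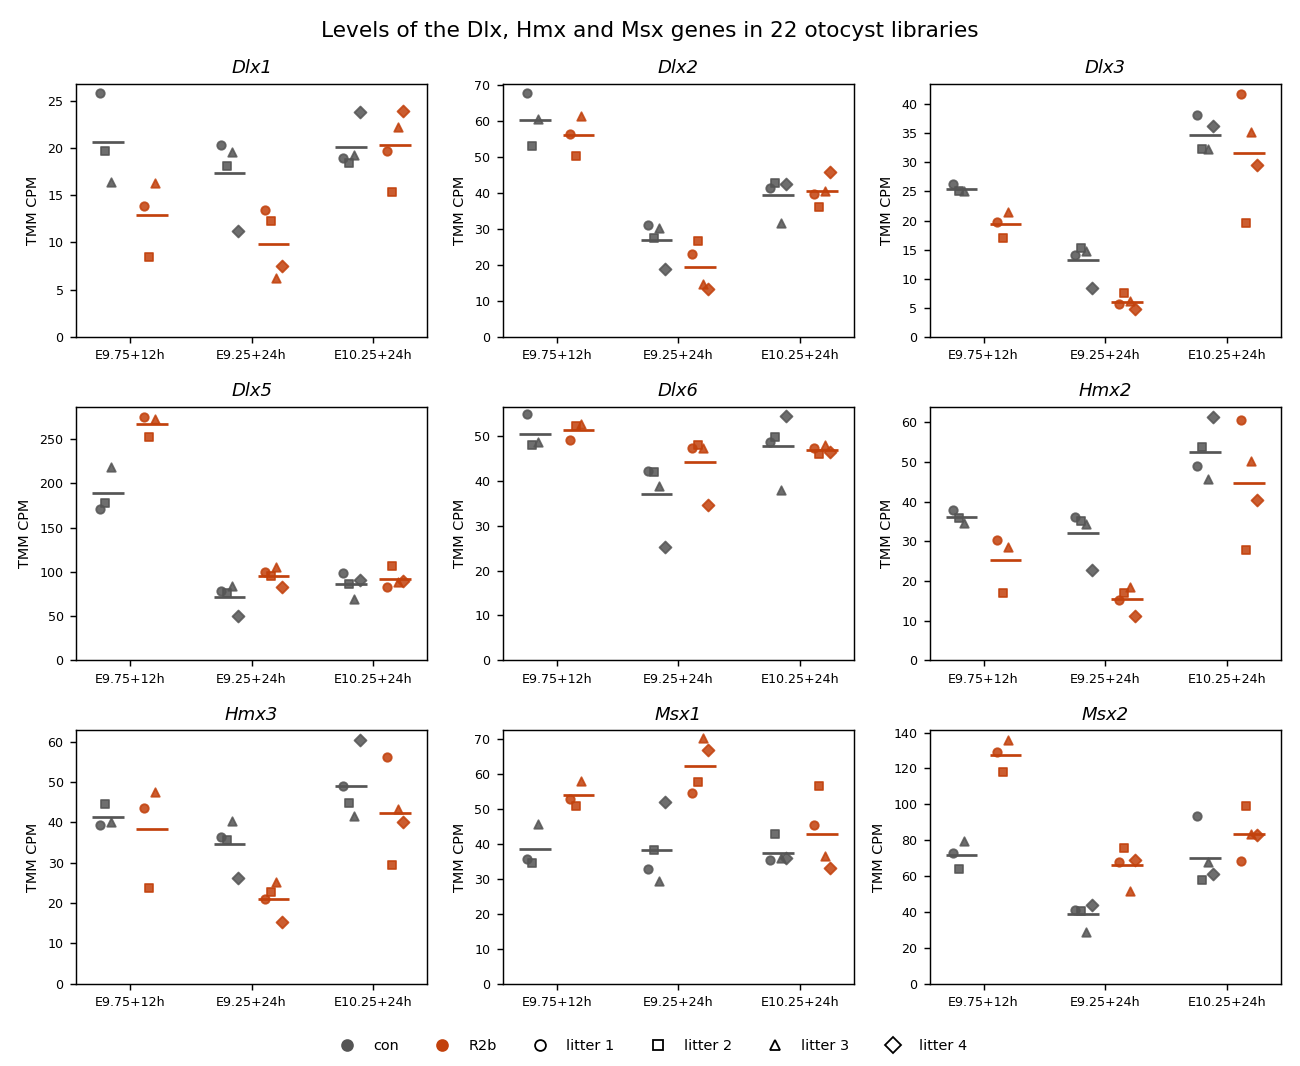
TMM CPM of each of the 9 genes (vertical axis from 0) in the 22 libraries by exposure; grey points are con, orange points R2b, symbols give the litter and bars the group mean. At E9.25+24h the R2b points of Dlx3, Hmx2 and Hmx3 lie below all con points, and those of Msx1 and Msx2 above.

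The E9.75+12h comparison asked what had changed within 12 h of induction. Msx2, Msx1 and Dlx5 were higher in R2b, by 1.77, 1.39 and 1.41 times, and no member was lower past the threshold. A gene is called here when the Benjamini-Hochberg adjusted p (FDR) of edgeR's quasi-likelihood test over all genes was under 0.05. Of the 9 genes, 3 were called, where 20.0% of the 14882 genes tested were (1518 higher and 1455 lower). The groups did not overlap for 6 of the 9, where they did not for 38.9% of all genes. The member median was -0.11 on the log2 scale, beside 0.01 over all genes tested.

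Msx2 had the most marked response at this time. Its 3 con pools were at 72.7, 63.8 and 79.4 CPM, and its R2b pools of the same litters at 129, 118 and 136 CPM. All R2b pools were above all con pools, and the log2 fold change was 0.83 (SE 0.11, edgeR FDR 8.91e-04). Msx1, its paralog, was at 35.8, 34.6 and 45.5 CPM in con and at 52.9, 50.7 and 58.0 CPM in R2b. Again every R2b pool was above every con pool, with a log2 difference of 0.48 (SE 0.13, FDR 0.0228 in edgeR).

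Dlx5, the most abundant member, was at 171, 178 and 218 CPM in con and at 275, 253 and 273 CPM in R2b. The R2b pools were all higher, with a log2 difference of 0.50 (SE 0.11, FDR 0.00941 in edgeR). Its linked partner Dlx6 was at 48.0 to 55.0 CPM in con and 49.2 to 52.7 CPM in R2b, which gave a log2 difference of 0.02 (SE 0.10, FDR 0.893 in edgeR) with full overlap. The noncoding gene Dlx6os1, which overlaps this locus, had 8.78 ± 2.34 CPM in con against 10.6 ± 2.19 CPM in R2b (SD, n = 3 each) and was not called. The strand setting of the counting is not given in the sources used here, so reads of Dlx6os1 and of its neighbours may not be fully separated.

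Dlx1, Dlx3 and Hmx2 were lower in all R2b pools without passing the test. Dlx1 was at 25.8, 19.7 and 16.3 CPM in con and at 13.9, 8.42 and 16.2 CPM in R2b, which gave a log2 difference of -0.69 (SE 0.24, FDR 0.0623 in edgeR). In litter 3 its pools were nearly level, while in litters 1 and 2 R2b was clearly below con. Dlx3, also a gene of the early placode, was at 26.2, 25.1 and 25.1 CPM in con and at 19.7, 17.0 and 21.5 CPM in R2b (log2 fold change -0.39, SE 0.13, edgeR FDR 0.0545). Hmx2 was at 37.8, 35.9 and 34.7 CPM in con and at 30.3, 16.9 and 28.6 CPM in R2b (log2 fold change -0.52, SE 0.19, edgeR FDR 0.0722), with litter 2 lowest. Hmx3 shared that low R2b pool of litter 2, at 23.7 CPM, but was at 43.7 and 47.6 CPM in the other R2b pools and at 39.2 to 44.6 CPM in con, so the groups overlapped. Dlx2 was at 53.1 to 67.8 CPM in con and 50.3 to 61.5 CPM in R2b, also with overlap.

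Among the called genes, Msx2 passed under all 18 alternative settings tried at this exposure, and Dlx5 and Msx1 did not. Without con litter 1 the edgeR FDR of Dlx5 was 0.0511, and the FDR of Msx1 was 0.0971 without con litter 1, 0.0944 without con litter 2, 0.0701 without R2b litter 1 and 0.0789 without R2b litter 3. Without both pools of litter 1, Msx2 alone was called, where 434 of 14878 genes were. In the edgeR fit of all 22 libraries Msx1 had an FDR of 0.0851. With the litter as a block in the edgeR fit, Dlx5, Msx1 and Msx2 were called, where 11.9% of all genes were.

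After 24 h of exposure from E9.25, taken at the same stage, members were called in both directions. Dlx3, Hmx2 and Hmx3 were lower in R2b, by 2.17, 2.075 and 1.65 times, and Msx1 and Msx2 were higher, by 1.64 and 1.71 times. Of the 9 genes, 5 were called, where 15.6% of the 14979 genes tested were (9.09% higher and 6.50% lower). The same 5 did not overlap between the groups, where 22.4% of all genes did not. The member median was -0.47 on the log2 scale, beside -0.01 over all genes.

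Both Hmx genes fell. Hmx2 was at 36.1, 35.1, 34.3 and 22.7 CPM in con and at 15.2, 16.9, 18.6 and 11.1 CPM in R2b (log2 fold change -1.05, SE 0.19, edgeR FDR 0.00948). Hmx3 was at 36.5, 35.6, 40.4 and 26.3 CPM in con and at 21.1, 22.8, 25.2 and 15.2 CPM in R2b (log2 fold change -0.72, SE 0.17, edgeR FDR 0.0257). For both genes litter 4 was lowest in either genotype, and even so no R2b pool reached the lowest con pool.

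Dlx3 fell by 1.12 on the log2 scale (SE 0.21, edgeR FDR 0.0119), from 14.1, 15.3, 14.7 and 8.39 CPM in con to 5.70, 7.50, 6.14 and 4.78 CPM in R2b. Litter 4 was again lowest in con, at a level still above every R2b pool. Dlx1 was at 20.3, 18.1, 19.6 and 11.2 CPM in con and at 13.4, 12.2, 6.19 and 7.48 CPM in R2b (log2 fold change -0.82, SE 0.27, edgeR FDR 0.0753). Each R2b pool was below the con pool of its own litter, but con litter 4 lay among the R2b values. Dlx2 was at 31.0, 27.6, 30.3 and 18.8 CPM in con and at 23.1, 26.8, 14.7 and 13.2 CPM in R2b (log2 fold change -0.47, SE 0.25, edgeR FDR 0.225), and here too con litter 4 lay among the R2b values.

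The Msx genes rose at this exposure too. Msx1 was at 32.8, 38.3, 29.4 and 51.9 CPM in con and at 54.5, 57.7, 70.4 and 66.8 CPM in R2b (log2 fold change 0.71, SE 0.17, edgeR FDR 0.0249). Its highest con value was that of litter 4, the litter with the most mesenchyme marker RNA. Msx2 was at 41.1, 40.4, 28.9 and 44.0 CPM in con and at 67.6, 75.8, 51.5 and 69.0 CPM in R2b (log2 fold change 0.77, SE 0.15, edgeR FDR 0.0128), and litter 3 was lowest in both genotypes. Without litter 4, the log2 fold changes of the unblocked fit were 0.86 for Msx1, 0.82 for Msx2 and 0.34 for Dlx5. Those of Dlx3, Hmx2 and Hmx3 were then -1.19, -1.06 and -0.70.

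Dlx5 and Dlx6 were higher in R2b in 4 of 4 litters without passing the unblocked test. Dlx5 was at 78.3, 75.5, 83.4 and 49.5 CPM in con and at 99.3, 95.5, 105 and 82.2 CPM in R2b (log2 fold change 0.41, SE 0.15, edgeR FDR 0.0938). Dlx6 was at 42.2, 41.9, 38.9 and 25.2 CPM in con and at 47.4, 48.0, 47.3 and 34.5 CPM in R2b (log2 fold change 0.26, SE 0.17, edgeR FDR 0.339). For both genes the 2 pools of litter 4 were the lowest of their genotypes, which made the groups overlap. Dlx6os1 had 8.08 ± 2.46 CPM in con against 11.2 ± 3.08 CPM in R2b (SD, n = 4 each) and was not called.

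**Figure D3:**
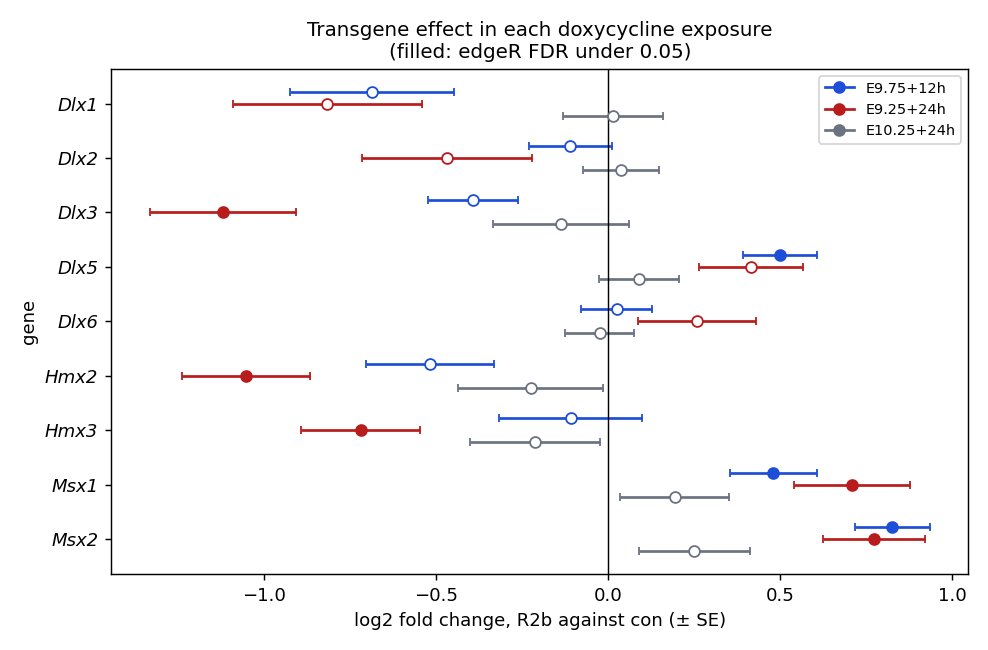
Log2 fold change of R2b against con for the 9 genes in each exposure, from edgeR, with bars of ± SE; filled points have an FDR under 0.05. Dlx1, Dlx3 and Hmx2 lie left of 0 and Dlx5, Msx1 and Msx2 right of 0 in the first 2 exposures, and the E10.25+24h points lie between -0.23 and 0.25.

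The con and R2b pools of a litter came from the same female, and at E9.25+24h they deviated together. With the litter as a block in the edgeR fit, all 9 genes passed at this exposure, where 40.6% of all genes did (20.5% higher and 20.1% lower). Higher were Dlx5 at 0.43 (SE 0.06, FDR 4.91e-04), Dlx6 at 0.27 (SE 0.06, FDR 0.00388), Msx1 at 0.72 (FDR 6.73e-04) and Msx2 at 0.77 (FDR 3.74e-06) on the log2 scale. Lower were Dlx1 at -0.84 (SE 0.16, FDR 0.00254), Dlx2 at -0.49 (SE 0.13, FDR 0.0114), Dlx3 at -1.11 (FDR 3.84e-05), Hmx2 at -1.05 (FDR 3.96e-06) and Hmx3 at -0.72 (FDR 1.07e-05), again from the blocked edgeR fit. Every gene had the same sign in 4 of 4 litters, and all 9 passed the blocked test with any 1 litter left out. Without litter 1, 31.5% of all genes passed that blocked test. Without the block, no member was called when litter 1 or litter 2 was left out, and Hmx2 and Msx2 alone when litter 3 was. Those 3 fits called 322, 460 and 1117 genes in that order. Left out one library at a time, Msx1 lost its call without con or R2b of litters 1, 2 or 3 (edgeR FDR 0.0521 to 0.0613), and Hmx3 without con of those litters or R2b of litters 1 or 2 (edgeR FDR 0.0580 to 0.0753).

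**Figure D4:**
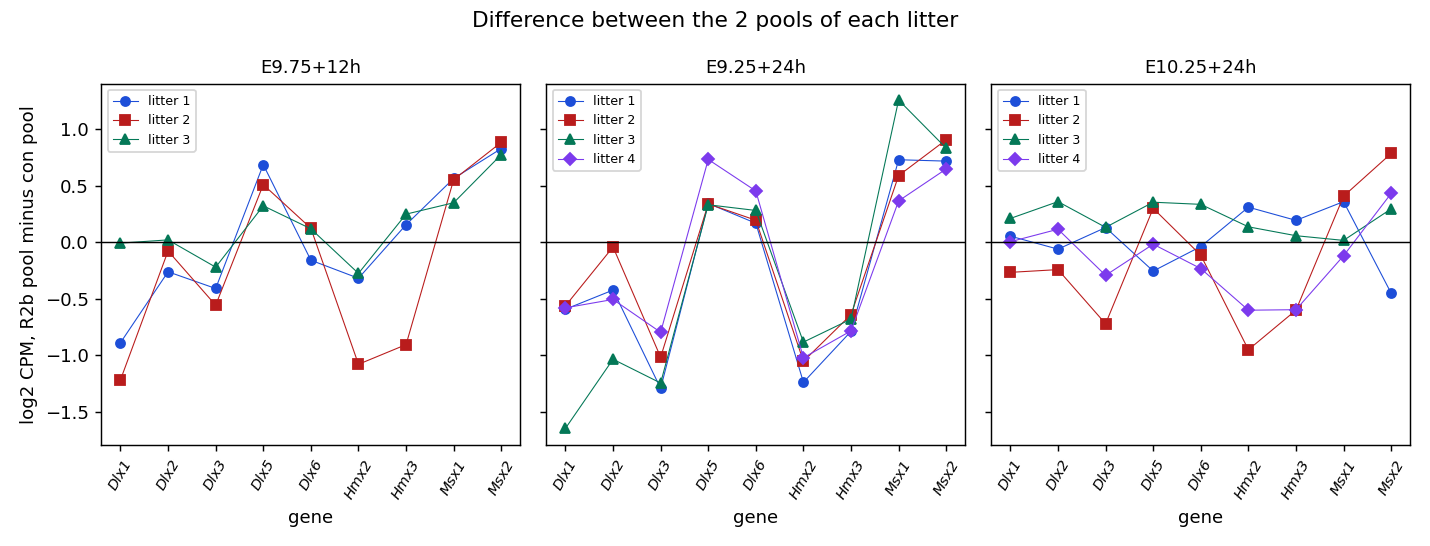
Difference in log2 CPM between the R2b and the con pool of each litter, for the 9 genes in the 3 exposures; each line joins the values of 1 litter and is not a time course. At E9.25+24h the lines of the 4 litters stay on the same side of 0 for every gene, and at E10.25+24h they cross it.

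At E10.25+24h, taken at E11.25, none of the 9 genes was called by edgeR, and none of the 15203 genes tested was (0%). At an unadjusted p under 0.05 edgeR called 1.15% of all genes and no member, and DESeq2 called none after adjustment. No member had groups that did not overlap, against 0.914% of all genes, and the member median was 0.01 beside 0.0014 over all genes. Log2 fold changes ran from -0.23 for Hmx2 (SE 0.21) to 0.25 for Msx2 (SE 0.16), all with an edgeR FDR of 0.9999.

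The litters of this exposure did not move alike. Msx2 was at 93.2, 57.6, 67.9 and 61.2 CPM under the label con and at 68.1, 99.2, 83.3 and 82.6 CPM under the label R2b. It was thus lower in R2b in litter 1 and higher in the other 3. Hmx2 was at 49.0, 53.8, 45.7 and 61.4 CPM under con and at 60.7, 27.8, 50.2 and 40.4 CPM under R2b, higher in litters 1 and 3 and lower in litters 2 and 4. Dlx3 was at 38.1, 32.4, 32.2 and 36.3 CPM under the label con and at 41.7, 19.6, 35.3 and 29.6 CPM under R2b, with the same litters on each side. Hmx3 ran from 41.6 to 60.6 CPM under con and from 29.4 to 56.1 CPM under R2b, and Msx1 from 35.4 to 42.7 and from 33.0 to 56.6 CPM. Dlx5 ran from 68.8 to 98.3 and from 82.3 to 106 CPM, Dlx6 from 38.1 to 54.6 and from 46.0 to 48.0 CPM. Dlx1 ran from 18.4 to 23.8 and from 15.3 to 23.9 CPM, Dlx2 from 31.7 to 42.8 and from 36.2 to 45.9 CPM. Litter 2 had the sign of the E9.25+24h difference in 8 of 9 genes, litters 3 and 4 in 4 of 9 and litter 1 in 2 of 9.

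Without litter 1, the unblocked edgeR fit still called no member, and none of the 15195 genes tested was called (0%). The unadjusted p was then under 0.05 for 16.0% of all genes and 1 member, Msx2. Msx2 was also the member whose groups no longer overlapped, where 22.8% of all genes did not, and the member median was 0.0052 beside 0.0065 over all genes. No member was called without con litter 3. In the blocked fit without litter 1, Msx2 alone passed, at 0.51 on the log2 scale (SE 0.09, edgeR FDR 0.0413), where 4.04% of all genes did. Hmx2 was then at -0.46 (edgeR FDR 0.197), Hmx3 at -0.37 (edgeR FDR 0.158) and Dlx5 at 0.22 (edgeR FDR 0.157). In the unblocked fit without litter 1, the 5 surface ectoderm markers had a median log2 fold change of -3.98, with none called. The part of such tissue in these member values was not tested.

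The effects themselves were compared between exposures in one edgeR fit of 6 group means over all 22 libraries, and no member differed between exposures past the threshold, as no gene of 15688 did (0%). Comparing E9.25+24h to E9.75+12h, the smallest unadjusted p among the members was that of Dlx3, whose effect was 0.71 lower on the log2 scale (SE 0.29, unadjusted p 0.0259, edgeR FDR 0.342), where 12.2% of all genes had an unadjusted p under 0.05. Msx2 differed by -0.04 (SE 0.23) and Dlx5 by -0.06 (SE 0.20). From E9.25+24h to E10.25+24h Dlx3 again had the smallest p, with an effect 0.98 higher (SE 0.27, unadjusted p 0.00181, edgeR FDR 0.248), and 8.57% of all genes had an unadjusted p under 0.05. Hmx2, Dlx1, Msx2 and Msx1 were also under 0.05 (unadjusted edgeR p 0.0128, 0.0247, 0.0257 and 0.0420), and Dlx2, Dlx5, Dlx6 and Hmx3 were not. Without litter 1 of E10.25+24h, only Dlx3, Dlx1 and Msx1 were (unadjusted edgeR p 0.00573, 0.0487 and 0.0441). The fit of 6 group means does not hold the litter. With the litter as a block the difference in the Dlx3 effect was -0.69 (SE 0.21, edgeR FDR 0.164) in the first of these comparisons and 0.92 (SE 0.19, edgeR FDR 0.115) in the second, and again no gene was called in either (0%). Without litter 1 of E10.25+24h, 0.153% of all genes were called in the first comparison and none in the second, and with the block as well 2.02% and 0.0191%, with no member among them. The smallest member FDR in these fits was 0.0905, for Dlx3 in the first comparison with the block and without that litter. A call in one exposure and none in the next is thus not shown to be a difference between them.

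The ratio of 4 linked or paralogous pairs was compared in the 3 exposures by a two-sided exact permutation test, a comparison chosen after the values were seen. At E9.25+24h the log2 ratio of Dlx1 to Dlx2 was -0.65 ± 0.06 in con and -0.996 ± 0.231 in R2b (SD, n = 4 each), without overlap, and the exact p of 0.0286 is the smallest that 4 against 4 can give. The log2 ratio of Hmx2 to Hmx3 was -0.12 ± 0.12 in con and -0.45 ± 0.02 in R2b (SD, n = 4 each), also with an exact p of 0.0286. Adjusted over the 12 tests both had p = 0.171 (exact permutation), above the threshold. At E9.75+12h none of the 4 pairs overlapped either, with differences of -0.60 for Dlx1 to Dlx2, 0.48 for Dlx5 to Dlx6, -0.39 for Hmx2 to Hmx3 and -0.34 for Msx1 to Msx2. There the exact p of 0.1 is the smallest that 3 against 3 can give (0.196 adjusted). At E10.25+24h the differences were -0.10 to 0.11, and without litter 1 they ran from -0.40 for Msx1 to Msx2 to 0.22 for Dlx5 to Dlx6.

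Across the 22 libraries, with the mean of each exposure removed, Dlx1, Dlx2, Dlx3, Hmx2 and Hmx3 had positive correlations among themselves and negative ones with Msx1 and Msx2. This is a description, since the libraries share the transgene difference, the litter and the composition of the pools. Dlx3 and Hmx2 had a Pearson r of 0.942, Hmx2 and Hmx3 of 0.939 and Dlx1 and Dlx2 of 0.826. Msx1 and Msx2 had an r of 0.720, and Dlx5 and Dlx6 of 0.688. Between those 5 genes and the Msx genes r was negative, at -0.826 for Dlx1 and Msx1 and -0.766 for Hmx2 and Msx2. Among 12799 other genes, the one most like Msx2 was Hexa (r = 0.982), a lysosomal hexosaminidase gene, followed by Mmp14 (r = 0.973), a membrane metalloprotease gene. Most like the others were Hr for Dlx3 (0.937), Prss8 for Dlx5 (0.937), Slc35f3 for Hmx2 (0.933), Tbx1 for Hmx3 (0.916), Crb3 for Dlx6 (0.886), Cdc42ep1 for Msx1 (0.882), Gprin3 for Dlx1 (0.880) and Acrbp for Dlx2 (0.795). Tbx1 codes for a T-box factor of the otic epithelium and was 1 of the markers used here. Over the 20 libraries left without litter 1 of E10.25+24h, no r between 2 members moved by more than 0.0513. The most alike gene was then another for Dlx1 (Traf3ip2, 0.902), Dlx2 (Dusp14, 0.878) and Msx1 (Parvb, 0.904), and the second for Msx2 was Mfap2 (0.977).

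**Figure D5:**
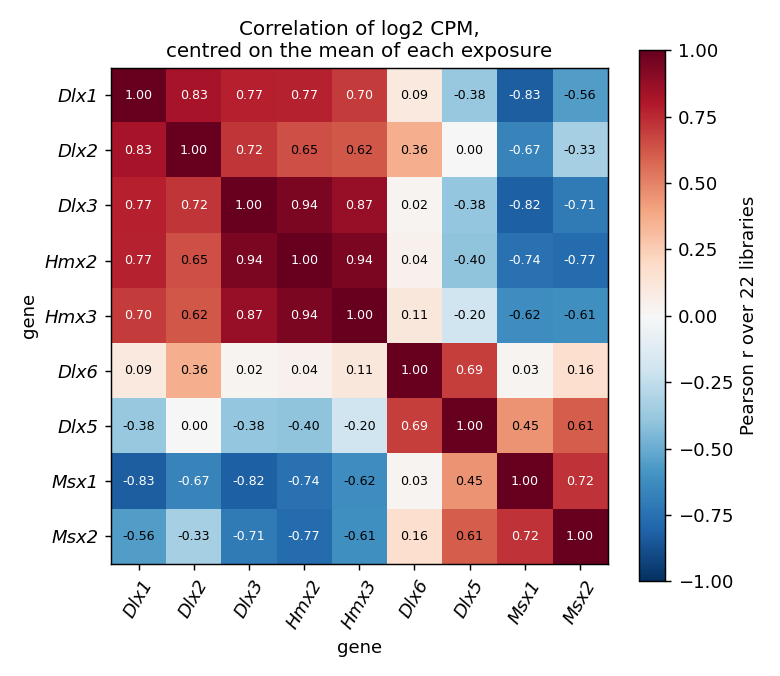
Pearson r between the 9 genes over 22 libraries, from log2 CPM with the mean of each exposure removed; colour and number give r. Dlx1, Dlx2, Dlx3, Hmx2 and Hmx3 form a block of positive values, with Dlx3 and Hmx2 at 0.94, and Msx1 and Msx2 are negative against it.

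Most genes next to the loci did not follow them. Bub3, a spindle checkpoint gene 2.21 kb from Hmx2, was lower in R2b at both exposures that ended at E10.25, by 12 h (-0.45, SE 0.10, edgeR FDR 0.0124) as well as 24 h (-0.35, SE 0.07, edgeR FDR 0.0137). Sfxn1, a mitochondrial carrier gene 599 kb from Msx2, was also lower, at -0.51 (edgeR FDR 0.0102) and -0.36 (edgeR FDR 0.0121), the direction opposite to that of Msx2. Sem1, a proteasome gene 285 kb from Dlx6, was called lower at E9.75+12h (-0.46, edgeR FDR 0.0497) and was not called at the other exposures. Metap1d, which ends 2.92 kb before Dlx1, was not called in any exposure, nor were Itga6, Sdhaf3, Itga3, Acadsb, Cytl1, Stx18 and Sptlc1. Dlx4, the neighbour of Dlx3 and its close relative, was near 0.5 CPM and was not called where it was tested. Hmx1 had group means of at most 1.67 CPM where it was tested. Without litter 1, no neighbour was called at E10.25+24h.

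The surrounding pathways were read from lists of genes, beside the 20.0% of all genes called at E9.75+12h and the 15.6% called at E9.25+24h. FGF readout genes, the feedback and ETS genes that depend on FGF signals, were lower in R2b in 9 of 9 cases at both exposures ending at E10.25 (medians -1.40 and -1.25), and 0 of 9 were called at E10.25+24h (median -0.38, and -0.93 without litter 1). Dusp6, a phosphatase that dampens ERK, fell from 80.1 to 23.5 CPM within 12 h (log2 fold change -1.78, edgeR FDR 3.47e-04). The largest member changes by log2 size, 0.83 for Msx2 at E9.75+12h and -1.12 for Dlx3 at E9.25+24h, were smaller than the median of that list in the same exposure.

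Genes of canal and vestibular patterning were also called in both directions (values in parentheses are log2 fold changes). Of 14, 4 were called higher and 3 lower after 12 h, where 20.0% of all genes were called. After 24 h from E9.25, 3 were called higher and 3 lower, where 15.6% of all genes were called. Bmper, a BMP-binding protein gene, rose from 52.2 to 115 CPM (log2 fold change 1.14) and from 52.7 to 187 CPM (1.83). Otx1, a homeobox gene needed for the lateral canal, fell at E9.75+12h (-0.84) and from 58.1 to 20.5 CPM at E9.25+24h (-1.50). Lmo4, a LIM-only gene, fell at both exposures (-0.85 and -0.76), and Lmx1a, a LIM homeobox gene, rose at both (0.53 and 0.60).

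Of 10 ventral and neurogenic genes, 3 were called higher and 1 lower at E9.75+12h, where 20.0% of all genes were called. Neurog1 (0.78) and Neurod1 (0.53), factors of the otic neuroblasts, rose there and Otx2, a ventral homeobox gene, fell (-0.97). At E9.25+24h the ligand gene Fgf3 rose (0.94) and Otx2 fell (-2.21).

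Msx genes are known as BMP targets, so BMP readout genes were set beside them. Of 9, 2 were called higher at E9.75+12h, Atoh8 (0.67) and the inhibitory Smad6 (0.47), a share near the 20.0% of all genes. At E9.25+24h 1 of 9 was, Bambi (0.34), where 15.6% of all genes were called, and none was lower at either. Id1, Id2, Id3 and Id4 were not called in any exposure. Of 9 Wnt readout genes, 3 were higher after 12 h and 4 after 24 h from E9.25, with none lower, among them Sp5 (0.88 and 1.07) and Nkd1 (0.43 and 0.36). None of these lists had a called gene at E10.25+24h, with or without litter 1.

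Msx1, Msx2 and several Dlx genes are also expressed in mesenchyme, arch neural crest and surface ectoderm, so markers of those tissues were read in the same libraries. Summed mesenchyme markers ranged from 106 to 360.5 CPM in con and 192 to 356 CPM in R2b at E9.75+12h, and from 79.3 to 1267 and 89.3 to 1176 CPM at E9.25+24h, so the groups overlapped. Of the 9 mesenchyme markers tested at each of these exposures, 1 was called higher after 12 h (Dcn, a matrix proteoglycan gene) and none at E9.25+24h. Arch neural crest markers, of which 4 of 9 had a row, summed to 9.48 to 19.9 CPM in con and 14.5 to 22.2 CPM in R2b at E9.75+12h, and to 7.27 to 71.1 and 11.04 to 72.6 CPM at E9.25+24h. Surface ectoderm markers, of which 5 of 7 had a row, summed to 33.8 to 47.6 and 34.8 to 56.9 CPM, and to 32.8 to 54.2 and 34.9 to 71.1 CPM. Within each litter of E9.25+24h the mesenchyme sums of con and R2b were 313 and 392, 174 and 174, 79.3 and 89.3, and 1267 and 1176 CPM. The part of mesenchyme RNA in the Msx values was not tested. At E10.25+24h mesenchyme sums ran from 304 to 846 CPM under the label con and from 287 to 620 CPM under R2b. Arch neural crest sums ran from 9.81 to 92.7 and from 10.4 to 31.1 CPM. Surface ectoderm sums ran from 45.8 to 178 and from 28.7 to 110 CPM, and blood sums from 170 to 681 and from 269 to 5129 CPM. The part of these tissues in the member values of that exposure was not tested. Endothelium and blood markers included no called gene at E9.25+24h, and of 10 hindbrain markers 2 had a row. Summed otic markers were higher in R2b than in con of the same litter in every litter of the first 2 exposures, and their part in the results was not tested. They ranged from 2743 to 3061 CPM in con and from 3061 to 4060 CPM in R2b at E9.75+12h. For E9.25+24h the range was 1653 to 2985 CPM in con and 2572 to 4466 CPM in R2b. Oc90 alone averaged 1083 CPM in con and 1938 CPM in R2b there and was not called. The otic markers went both ways. Of 10, 4 were called higher and 1 lower at E9.75+12h, where 20.0% of all genes were called. At E9.25+24h 2 were called higher and 1, Tbx1, lower, where 15.6% of all genes were called.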

How the data were processed

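The table deposited by the authors holds raw counts per gene as whole numbers, unnormalized, for 24 columns. Of these, 22 matched a sample by its library number, and 2 matched none and were not used. The submitters' processing notes name Novoalign 2.08.03 and mm10, and the counting tool, annotation and strand setting are not given in the sources used here. Symbols and exon lengths came from GENCODE M21 (GRCm38). Groups came from the labels. Each exposure was fitted alone in edgeR 4.0.16 (R 4.3.3) with filterByExpr, TMM, glmQLFit and glmQLFTest, without covariates, and a gene was called at an FDR under 0.05. SEs were derived from the F statistic. Log2 CPM used a prior count of 2. A code shared in the sample titles paired the con and R2b pools of a litter. Correlations of their deviations were negative in the E9.75+12h litters (-0.31 to -0.17), positive in those of E9.25+24h (0.52 to 0.83) and mixed in those of E10.25+24h (-0.17 to 0.44). The litter block was therefore an alternative fit everywhere. Other fits used DESeq2 1.42.0 or its size factors, all genes or those with a mean CPM of at least 1, all 22 libraries at once, or left out each library or litter. After the values were seen, summaries without litter 1 of E10.25+24h and the blocked effect differences were added. On simulated data with 200 changed genes, 2-fold changes were recovered at 95.5% in the design of E9.75+12h, with 14 false calls. The share was 96.5% in that of E9.25+24h and 96.0% in that of E10.25+24h, with 10 false calls in each. The simulation gave all genes the same dispersion, no litter effect and correct labels. It therefore does not give the power of the real comparisons. The members and lists were chosen with earlier results of these data known. Genes named were the members, Fgfr2 and Ighg1, at most 3 called genes per list and exposure by smallest FDR, the nearest protein-coding gene on each side of each locus, the family relatives and overlapping noncoding genes in the table, and the 2 genes most correlated with each member, of which the report gives the first and both for Msx2. The Id genes were named after their values were seen. Counts carry no molecular identifiers, and SDs and SEs are between litters. One gene of the ventral and neurogenic list is not reported here by name.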

Additional observations from a re-analysis of the deposited data

Results flagged for a closer look

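In groups of 4 libraries, a value was marked when its gap to the nearest other value took a share of the range above Dixon's 95% critical value. Chance marks about 1 group in 20, and here 7 of 36 groups were marked. The groups are correlated genes read in the same libraries, so an excess over chance was not shown. Of these 7, 4 were litter 4 of E9.25+24h, the litter with the most mesenchyme marker RNA and the least otic marker RNA in its genotype. Its con pool was low for Dlx3 at 8.39 CPM (others 14.1 to 15.3), for Hmx2 at 22.7 CPM (others 34.3 to 36.1) and for Dlx6 at 25.2 CPM (others 38.9 to 42.2). Its R2b pool was low for Dlx6 at 34.5 CPM (others 47.3 to 48.0). Whether the makeup of those pools set these values was not tested. The other 3 were libraries labelled con at E10.25+24h. Dlx1 was high in litter 4 at 23.8 CPM (others 18.4 to 19.2). Msx1 was high in litter 2 at 42.7 CPM (others 35.4 to 36.0), the pool with the most surface ectoderm marker RNA. Dlx2 was low in litter 3 at 31.7 CPM (others 41.5 to 42.8). That pool carried the transgene, but so did the pool labelled con of litter 1, where Dlx2 was at 41.5 CPM. Whether the transgene or the makeup of these pools bore on the values was not tested.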

How the results depend on the processing

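Counts of called members moved with the choice of fit more than the log2 fold changes did. The number of all genes called moved with the fit too, and is given beside the member counts. At E9.75+12h 3 of 9 were called, where 20.0% of all genes were. DESeq2 called 6, adding Dlx1, Dlx3 and Hmx2 as lower, where it called 3541 of 15736 genes. The fit of all 22 libraries called 2, without Msx1, where 29.1% of all genes were called. The fits with a library or litter left out called 1 to 4 members, and from 267 to 4583 genes. At E9.25+24h 5 were called, where 15.6% of all genes were. The replicate block called 9, where 40.6% of all genes were called. DESeq2 and the fit of all 22 libraries each called 7, adding Dlx1 as lower and Dlx5 as higher. Of all genes, DESeq2 called 3255 of 15736 there and the fit of all 22 libraries 13.3%. The fits with a library or litter left out called 0 to 9 members, the 9 being those that also had the block. Those fits called from 322 to 6161 genes. At E10.25+24h 0 were called in the report, and 0 to 1 with a library or litter left out. The 1 was Msx2 with the block and without litter 1, where 4.04% of all genes were called. No alternative called a member for a difference between exposures. The signs of small differences turned when a library or litter was left out. At E9.75+12h Dlx6 ranged from -0.034 to 0.11 and Hmx3 from -0.32 to 0.19. With the block as well, Dlx6 was at -0.032 without litter 2 and -0.026 without litter 3, and Hmx3 at 0.19 without litter 2. At E10.25+24h Dlx1 ranged from -0.073 to 0.12, Dlx2 from -0.059 to 0.12, Dlx3 from -0.30 to 0.028, Dlx5 from -0.0058 to 0.21 and Dlx6 from -0.13 to 0.052. With the block there, Dlx1 was at -0.0052 without litter 1 and -0.069 without litter 3, Dlx2 at -0.063 without litter 3, and Dlx6 at 0.00093, 0.015 and 0.061 without litters 1, 2 and 4. None of these was called in any fit, and the cause was not tested. No member changed sign at E9.25+24h in 22 alternatives each. The lowest count of a member in any library was 101 (Dlx3 in R2b litter 4 of E9.25+24h), so no member was near a count of 0.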
